A study of Mus musculus with 6 samples.

Results

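The genes examined here carry or restrain the signal that leads from a death receptor to caspases or to necroptosis: Fas, Fadd, Cflar, Casp8, Casp9, Casp12, Ripk3 and Xiap. They were chosen by symbol, and all 8 were measured among 18193 genes, by 22 of the 45037 probe sets that are not controls. Each gene is represented by its brightest probe set on average across the 6 arrays, called the main probe set, and the other 14 probe sets are shown beside it. The study profiled heart RNA on one-colour Affymetrix arrays, 3 from TNFαDes-/- mice and 3 from Des-/- mice, all 3 months old. TNFαDes-/- mice lack desmin, the intermediate filament protein of muscle, and overexpress the cytokine TNF-α in the heart. Des-/- mice lack desmin and carry no TNF-α transgene, so both groups share the desmin deletion, by their labels. Per the labels the TNFαDes-/- mice had a mixed 129SV/C57 background and the Des-/- mice were 129SV, so the effects of strain and of the transgene cannot be told apart in any comparison below. No source used here names the promoter behind the transgene. Per the labels, RNA from 3 hearts per genotype was combined ahead of labelling. Nothing says whether the 3 arrays of a genotype hold different animals, so the p-values cover the spread among these arrays alone, and that spread may be technical.

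Fas is a death receptor of the TNF receptor family. When it is engaged, the adaptor FADD joins the receptor to procaspase-8, and the caspase-8-like protein c-FLIP, the product of Cflar, binds in the same complex and limits the activation of caspase-8. TNF receptor 1 reaches the same proteins through a second complex. Caspase-9 is the initiator caspase of the mitochondrial route and XIAP is an inhibitor that binds active caspases, including caspase-9. Where caspase-8 is held inactive, the kinase RIPK3 can drive necroptosis, a lytic form of cell death. Caspase-12 belongs to the group of inflammatory caspases and has been linked to the endoplasmic reticulum in mouse. Desmin-null hearts are known for the death and loss of heart muscle cells.

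Values are log2 intensities as deposited, and each log2 change is TNFαDes-/- minus Des-/-. The groups were compared with limma over all genes, or over all probe sets where single probe sets are shown, with Benjamini-Hochberg adjustment and a threshold of 0.05. Of all genes, 21.3% passed, 15.2% higher and 6.05% lower in TNFαDes-/- hearts. The 6 listed heart muscle markers, among them Myh6 and Tnnt2, lay above the median of each array on every array, as the tissue label has it. Des-/- replicate 1 stood apart from the other Des-/- arrays, with an SD of the log2 difference over genes of 0.336 and 0.341 to them, against 0.157 between replicates 2 and 3. At the bright end it was Des-/- replicates 2 and 3 that read low, with 99th percentiles of 11.75 and 11.69. Des-/- replicate 1 stood at 12.27 there, and the TNFαDes-/- arrays at 12.26 to 12.31. Tnf itself stood at 5.94 ± 0.19 in TNFαDes-/- and 5.87 ± 0.09 in Des-/- hearts (SD, n = 3), and its change of 0.07 ± 0.12 (SE) did not pass (limma adjusted p = 0.746). Where its probe set lies relative to the transgene is not given, so it checks nothing. Of the 2 Des probe sets, 1426731_at read 8.75, 8.88 and 8.73 in TNFαDes-/- hearts, against 8.42, 8.43 and 8.33 in Des-/- hearts, above the array medians on all arrays and higher in TNFαDes-/- hearts by 0.39 (limma adjusted p = 0.0283). The other, 1426732_at, stood at -0.40 (limma adjusted p = 0.0829). No source used here places these probe sets inside or outside the deletion, so neither checks it. The log2 ratio of the 3' to the 5' control probe set of Gapdh, a sign of RNA quality, was 0.28 to 0.34 on TNFαDes-/- arrays and -0.05 to 0.01 on Des-/- arrays. For the b-Actin controls it was 0.62 to 0.79 on TNFαDes-/- arrays and 0.41 to 0.57 on Des-/- arrays, also without overlap. The part of these ratios in the results below was not tested.

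Of the 8 genes, 1 rose, Fadd, and 0 fell, a share of 12.5% against 21.3% of all genes. The median log2 change of the 8 was 0.12, beside 0.04 over all genes tested. At an unadjusted p under 0.05 stood 4 of the 8, Fadd, Casp9, Casp12 and Ripk3, as did 34.3% of all genes. The groups did not overlap on the main probe set of 5 genes, Fadd, Casp9 and Casp12 with TNFαDes-/- higher, and Cflar and Ripk3 with TNFαDes-/- lower. Such a separation was seen for 38% of all genes. The share of calls was thus no higher than the background. Among the 22 probe sets, 2 passed over all probe sets, both higher, 1 of Fadd and 1 of Cflar, and the background there was 14.9%, with 9.94% higher and 4.93% lower. The groups were apart on 11 of the 22, against 33.6% of all probe sets.

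**Figure D1:**
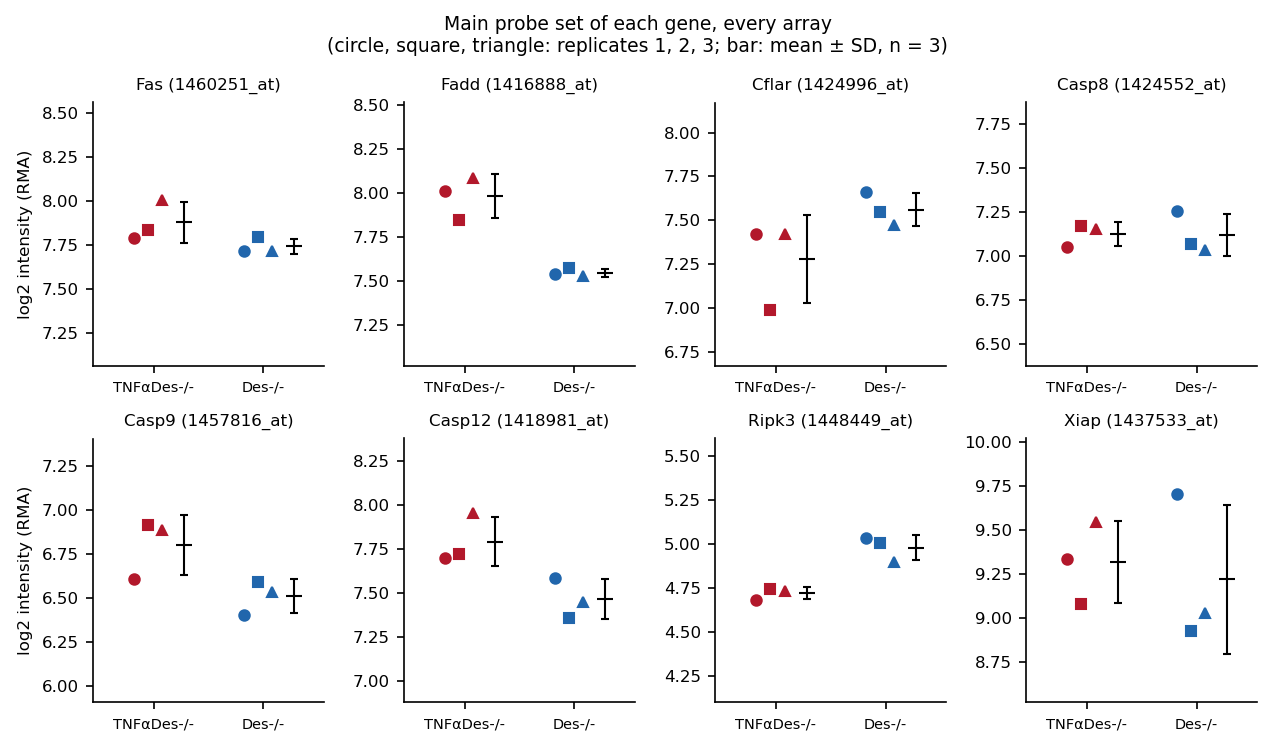
Log2 intensity of the main probe set of each of the 8 genes on every array, TNFαDes-/- in red on the left and Des-/- in blue on the right of each panel. Symbols mark replicates 1 to 3, and the bar gives the mean ± SD of 3 arrays. The 3 TNFαDes-/- arrays lie above all Des-/- arrays for Fadd (7.85 to 8.09 against 7.53 to 7.58), while the groups overlap for Fas, Casp8 and Xiap.

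Fas, the receptor, read 7.79, 7.84 and 8.01 on the TNFαDes-/- arrays, against 7.72, 7.80 and 7.72 on the Des-/- arrays. TNFαDes-/- replicate 1 lay just below the highest Des-/- array, so the groups overlapped. The change was 0.14 ± 0.10 (SE, limma adjusted p = 0.387), with a 95% interval of -0.09 to 0.37 on the log2 scale. After quantile normalization, which forces all arrays onto 1 distribution, it was -0.01, so its direction depends on the scaling.

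Fadd, the adaptor that both Fas and the TNF receptor complex use to recruit caspase-8, rose. It read 8.01, 7.85 and 8.09 in TNFαDes-/- hearts, against 7.54, 7.58 and 7.53 in Des-/- hearts. All TNFαDes-/- arrays were higher than all Des-/- arrays, and replicate 2 was the lowest of the TNFαDes-/- arrays. The means were 7.98 ± 0.12 and 7.55 ± 0.02 (SD, n = 3), a change of 0.43 ± 0.10 (SE) or 1.35-fold, with a 95% interval of 0.20 to 0.66 (limma adjusted p = 0.0170). Its p-value ranked 2330 among the 18193 genes. Its dimmer probe set 1446499_at read 5.26, 5.14 and 5.54 in TNFαDes-/- hearts, against 5.08, 5.06 and 5.04 in Des-/- hearts. That probe set gave 0.26 ± 0.12 in the same direction and did not pass over all probe sets (limma adjusted p = 0.196). The Fadd call ended after quantile normalization (0.29, limma adjusted p = 0.0553). It also ended without TNFαDes-/- replicate 1 (0.42, limma adjusted p = 0.0731), TNFαDes-/- replicate 3 (0.38, 0.0733), Des-/- replicate 2 (0.45, 0.0571) or Des-/- replicate 3 (0.43, 0.0657), though the direction was the same in each.

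Markers of some other cell types differed between the groups, in both directions. Of all genes, 15.2% were higher and 6.05% lower. Of 10 macrophage markers, 6 were higher and 1, Cd68, lower, and their summed level was 13.44 to 13.48 on TNFαDes-/- arrays and 12.84 to 13.25 on Des-/- arrays (log2 of the sum). Of 6 endothelial markers 3 were lower, with sums of 11.08 to 11.13 in TNFαDes-/- and 11.32 to 11.62 in Des-/- hearts, and of 6 fibroblast markers 2 were higher, at 14.37 to 14.45 against 13.59 to 14.07. Those 2 were Dcn and Col1a2, while Pdgfra, Col1a1, Tcf21 and Lum did not pass. Dcn was the brightest of the 6, with means of 13.62 in TNFαDes-/- and 12.68 in Des-/- hearts, and weighs most in the sum. Of 3 measured neutrophil markers 2 were higher, S100a8 and S100a9, at sums of 6.59 to 6.66 in TNFαDes-/- and 6.15 to 6.27 in Des-/- hearts, and S100a9 lay below the array medians throughout. Of 6 smooth muscle and pericyte markers 1 was lower, at sums of 12.43 to 12.54 against 12.38 to 12.97. The limma test called 0 of the 6 heart muscle markers (sums 16.58 to 16.64 against 16.08 to 16.73), 0 of 6 T cell markers (7.848 to 8.004 against 7.724 to 8.109) and 0 of 3 B cell markers (6.23 to 6.43 against 6.07 to 6.21). In whole-heart RNA, more cells of a type and more RNA per cell cannot be told apart, and the part of these cells in the Fadd result was not tested.

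The genes most like Fadd over the 6 arrays, among 9095 genes with an above-median mean, were Sptlc2 (Pearson r = 0.999), a subunit of serine palmitoyltransferase, Rtp4 (0.998), an interferon-induced gene, and Fkbp14 (0.997), a folding enzyme of the endoplasmic reticulum. This is a description over 6 arrays that share the difference between 2 groups, and 649 genes had an r over 0.95. Sptlc2 read 7.89, 7.79 and 7.94 in TNFαDes-/- hearts, against 7.60, 7.61 and 7.58 in Des-/- hearts.

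Cflar and Casp8 are neighbours on mouse chromosome 1 and encode the 2 proteins that compete within the receptor complex. On assembly GRCm38.p6, by RefSeq, Cflar spans chr1:58711311-58758884 and Casp8 chr1:58795233-58847503, with 36348 bases between them. The 250 bases before a RefSeq start of these genes and of Fadd are shown. Fadd was the member that passed, and the other 2 are a pair of neighbours. Sequences are from RefSeq on GRCm38.p6 in the direction of transcription, at chr7:144582442-144582691 (minus strand) for Fadd, chr1:58711241-58711490 (plus strand) for Cflar and chr1:58802252-58802501 (plus strand) for Casp8. The starts used for Cflar and Casp8 lie inside the gene spans above. Capitals mark matches, on either strand, to any of the motifs searched.
Fadd: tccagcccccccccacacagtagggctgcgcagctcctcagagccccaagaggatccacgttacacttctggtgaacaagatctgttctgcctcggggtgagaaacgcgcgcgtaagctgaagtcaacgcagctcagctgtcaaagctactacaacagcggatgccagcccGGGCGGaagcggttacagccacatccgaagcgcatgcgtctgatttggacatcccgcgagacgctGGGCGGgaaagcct
Cflar: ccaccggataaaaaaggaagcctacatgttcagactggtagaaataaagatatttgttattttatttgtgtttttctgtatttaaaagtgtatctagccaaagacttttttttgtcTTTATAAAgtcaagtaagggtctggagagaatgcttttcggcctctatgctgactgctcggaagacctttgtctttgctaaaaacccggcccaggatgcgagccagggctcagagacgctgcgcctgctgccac
Casp8: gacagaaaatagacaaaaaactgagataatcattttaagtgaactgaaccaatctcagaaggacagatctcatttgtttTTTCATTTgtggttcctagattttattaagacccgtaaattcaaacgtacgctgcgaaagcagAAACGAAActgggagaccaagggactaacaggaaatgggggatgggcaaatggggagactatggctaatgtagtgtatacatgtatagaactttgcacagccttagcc

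The motifs were the NF-κB consensus, AANNGAAA (a core bound by interferon regulatory factors), GGGCGG (the core of an Sp1 site) and TATAAA. Of 32851 windows of 250 bases in the promoter table, 7.3% held the NF-κB consensus, 21.3% AANNGAAA, 32.7% GGGCGG and 12.4% TATAAA. The Fadd window held 2 matches to GGGCGG, the Casp8 window 2 to AANNGAAA, and the Cflar window 1 to TATAAA on each strand, which overlap. The windows of all 8 genes held 0 matches to the NF-κB consensus, where the table lists 3 start windows for Xiap and 1 for each of the others. AANNGAAA was also found in the windows of Fas and Casp12, 1 match each. A match is a description of letters, and its absence says only that these letters are not in this window.

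The probe sets of Cflar disagreed in direction. The main probe set, 1424996_at, read 7.42, 6.99 and 7.42 in TNFαDes-/- hearts, against 7.66, 7.55 and 7.48 in Des-/- hearts. The TNFαDes-/- arrays were lower on it without overlap, at -0.28 ± 0.14 (SE), but the change did not pass (limma adjusted p = 0.185, 95% interval -0.59 to 0.03). After quantile normalization it passed as a fall, at -0.41 (limma adjusted p = 0.0260).

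Probe set 1449317_at rose instead. It read 6.70, 6.33 and 6.74 in TNFαDes-/- hearts, against 5.81, 5.80 and 5.83 in Des-/- hearts, with means of 6.59 ± 0.22 and 5.81 ± 0.01 (SD, n = 3). The 3 Des-/- arrays lay close together, and the lowest TNFαDes-/- array, replicate 2, lay well above them. The change was 0.78 ± 0.12 (SE) or 1.71-fold, past the test over all probe sets (limma adjusted p = 0.00529). The call was the same in 15 of 16 alternative settings, at 0.70 to 0.91, and was lost where only 1 Des-/- array, replicate 1, was kept (0.78, limma adjusted p = 0.0636), a fit in which that lone array is assumed to vary like the others.

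Of the other Cflar probe sets, 1425686_at read 6.55, 6.73 and 6.80 in TNFαDes-/- hearts, against 7.58, 7.02 and 6.94 in Des-/- hearts, at -0.49 ± 0.17 (SE, limma adjusted p = 0.0962). It did not overlap between groups, and Des-/- replicate 1 was far above the rest. Probe set 1425687_at, which the annotation ties to the same sequence record, stood at -0.29 ± 0.16, and 1453482_at at 0.16 ± 0.12, and neither passed. The mean of all 5 probe sets was -0.02 (limma adjusted p = 0.902), so a single value for Cflar averages opposite readings.

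Ratios of probe sets within an array show this free of a constant shift of the array. A shift that varies with intensity is not removed. The log2 ratio of 1449317_at to 1424996_at was -0.73, -0.66 and -0.68 on TNFαDes-/- arrays, against -1.85, -1.74 and -1.65 on Des-/- arrays. The groups stood 1.06 apart on the log2 scale and did not overlap. A two-sided exact permutation test over the 6 arrays gave p = 0.1, the smallest value that 3 against 3 arrays allow, and 0.233 adjusted over the 14 such ratios of the members. Which Cflar transcripts each probe set detects, and where each lies relative to the 3' end, was not analysed here, and the part of the 3' to 5' ratio in this difference was not tested.

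**Figure D2:**
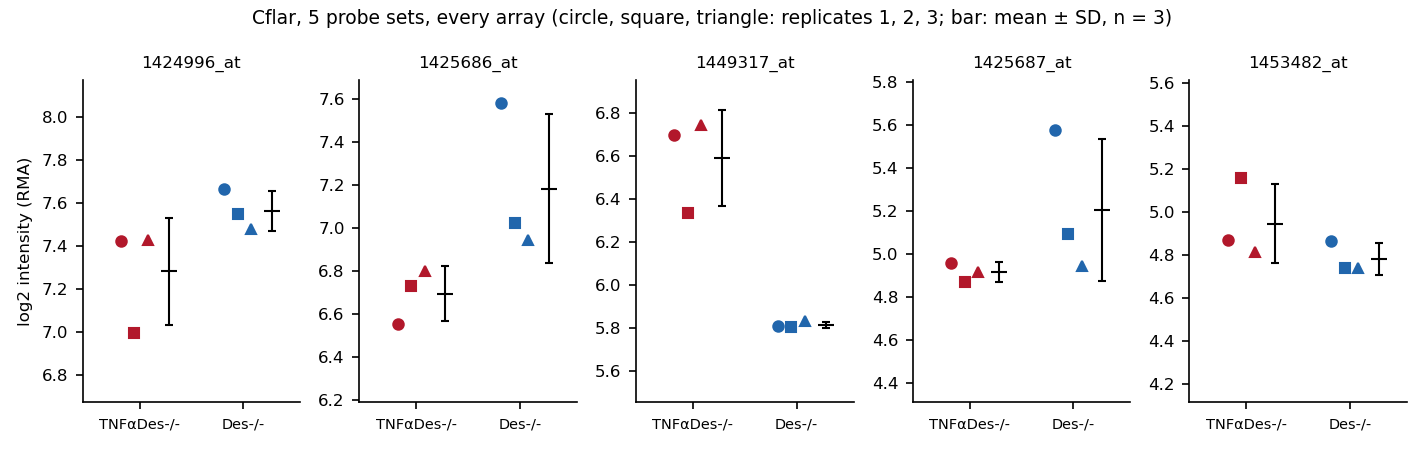
Log2 intensity of the 5 Cflar probe sets on every array, TNFαDes-/- in red on the left and Des-/- in blue on the right, with the mean ± SD of 3 arrays. Probe set 1449317_at is higher on all TNFαDes-/- arrays (6.33 to 6.74 against 5.80 to 5.83), while 1424996_at and 1425686_at are lower on all of them.

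Casp8, the initiator caspase of the receptor route, read 7.05, 7.17 and 7.15 in TNFαDes-/- hearts, against 7.26, 7.07 and 7.03 in Des-/- hearts. Its groups overlapped throughout, with Des-/- replicate 1 the highest array. The change was 0.0041 ± 0.10 (SE, limma adjusted p = 0.983) and the 95% interval ran from -0.23 to 0.24, which leaves room for a change of either sign up to that size.

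Casp9, the initiator caspase of the mitochondrial route, read 6.61, 6.92 and 6.89 on its main probe set in TNFαDes-/- hearts, against 6.41, 6.60 and 6.54 in Des-/- hearts. The groups did not overlap but lay close, TNFαDes-/- replicate 1 at 6.61 just above Des-/- replicate 2 at 6.60. The change of 0.29 ± 0.12 (SE) did not pass (limma adjusted p = 0.114). Its other probe sets stood at -0.03 ± 0.10 (1437537_at) and -0.39 ± 0.18 (1426125_a_at), and neither passed. The mean of the 3 probe sets was -0.04, so Casp9 had no settled direction.

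Xiap, the caspase inhibitor, read 9.33, 9.08 and 9.55 in TNFαDes-/- hearts, against 9.71, 8.93 and 9.03 in Des-/- hearts. Des-/- replicate 1 was the highest of all 6 arrays and the other Des-/- arrays the lowest, so the groups overlapped. The change was 0.10 ± 0.21 (SE, limma adjusted p = 0.791), with a 95% interval of -0.38 to 0.57. Without Des-/- replicate 1 it was 0.34 (limma adjusted p = 0.112), and after quantile normalization -0.11. With arrays weighted by how closely they fit their group (array weights) it passed as a rise (0.35, limma adjusted p = 0.0333). Under that setting 46.2% of all genes passed.

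A second Xiap probe set, 1456088_at, is tied by the annotation to the same sequence record as the main one. It read 5.566, 5.100 and 5.763 in TNFαDes-/- hearts, against 6.661, 5.822 and 5.996 in Des-/- hearts, at -0.68 ± 0.24 (SE, limma adjusted p = 0.0963). It passed as a fall with the replicate block, a pairing by replicate number that the labels do not state and that did not hold (limma adjusted p = 0.0267). Its log2 ratio to the main probe set was -3.77, -3.98 and -3.78 on TNFαDes-/- arrays and -3.04, -3.10 and -3.03 on Des-/- arrays, without overlap (two-sided exact permutation p = 0.1). The 5 other Xiap probe sets were dimmer than the array median everywhere, so a signal over background is not shown for them. Over all members, 6 of the 14 ratios to the main probe set did not overlap between groups, 1 of Fadd, 2 of Cflar, 1 of Casp9 and 2 of Xiap, and 35.5% of such ratios over all genes did not. None of the 14 passed the exact permutation test after adjustment (lowest adjusted p = 0.233), which 3 against 3 arrays could not reach.

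**Figure D3:**
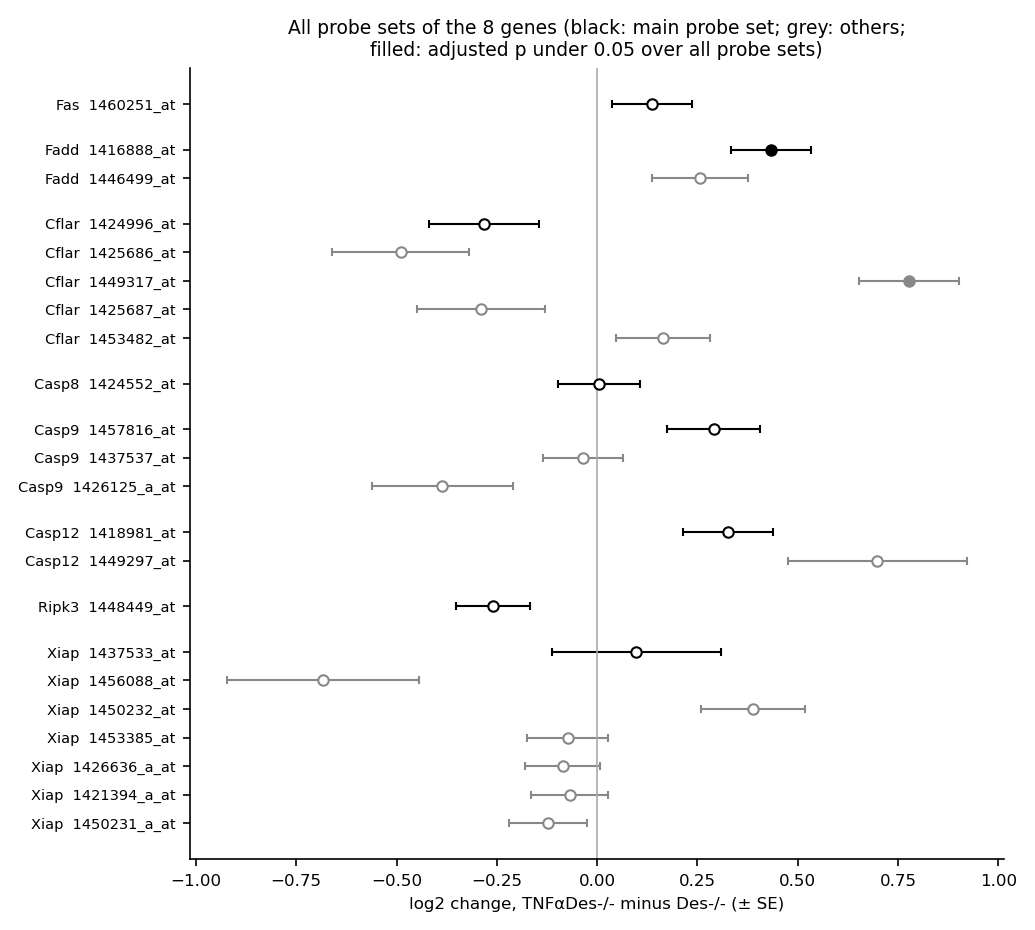
Log2 change (TNFαDes-/- minus Des-/-, ± SE from limma over all probe sets) of all 22 probe sets of the 8 genes, black for the main probe set and grey for the others, filled where the adjusted p was under 0.05. Filled points are Fadd 1416888_at (0.43) and Cflar 1449317_at (0.78), and 11 of the 22 lie on each side of 0.

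Casp12 had a higher mean on both probe sets in TNFαDes-/- hearts, and neither passed as deposited. The main one, 1418981_at, read 7.70, 7.72 and 7.95 in TNFαDes-/- hearts, against 7.59, 7.36 and 7.45 in Des-/- hearts, without overlap, at 0.33 ± 0.11 (SE, limma adjusted p = 0.0737). Probe set 1449297_at read 7.85, 7.24 and 7.99 in TNFαDes-/- hearts, against 7.37, 6.83 and 6.79 in Des-/- hearts, at 0.70 ± 0.22 (limma adjusted p = 0.0727). In 5 of 16 alternative settings it passed as a rise. These included the replicate block (limma adjusted p = 0.0249), under the same limit on pairing, and array weights (0.95, limma adjusted p = 0.000846). The rest were the fits without TNFαDes-/- replicate 2 (0.93, limma adjusted p = 0.0222) or Des-/- replicate 1 (0.88, limma adjusted p = 0.0194), and quantile normalization of 5 arrays without Des-/- replicate 1 (0.73, limma adjusted p = 0.0241). On 1449297_at the groups overlapped, since TNFαDes-/- replicate 2 lay below Des-/- replicate 1. The gene passed as the mean of both probe sets (0.51, limma adjusted p = 0.0429). Without Des-/- replicate 1, where 32% of all genes passed, the gene passed as well (0.39, limma adjusted p = 0.0316). It passed with array weights too (0.36, limma adjusted p = 0.00684), where 46.2% of all genes passed. After quantile normalization it stood at 0.20 (limma adjusted p = 0.153).

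Ripk3, the kinase of necroptosis, read 4.68, 4.75 and 4.74 in TNFαDes-/- hearts, against 5.04, 5.01 and 4.90 in Des-/- hearts. The TNFαDes-/- arrays were lower without overlap, at -0.26 ± 0.09 (SE, 95% interval -0.47 to -0.05), but the change did not pass (limma adjusted p = 0.0825). It passed only with array weights (-0.27, limma adjusted p = 0.0150), where 46.2% of all genes passed. Its single probe set lay above the array's median on 1 of the 6 arrays, Des-/- replicate 1, so no fold is given.

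**Figure D4:**
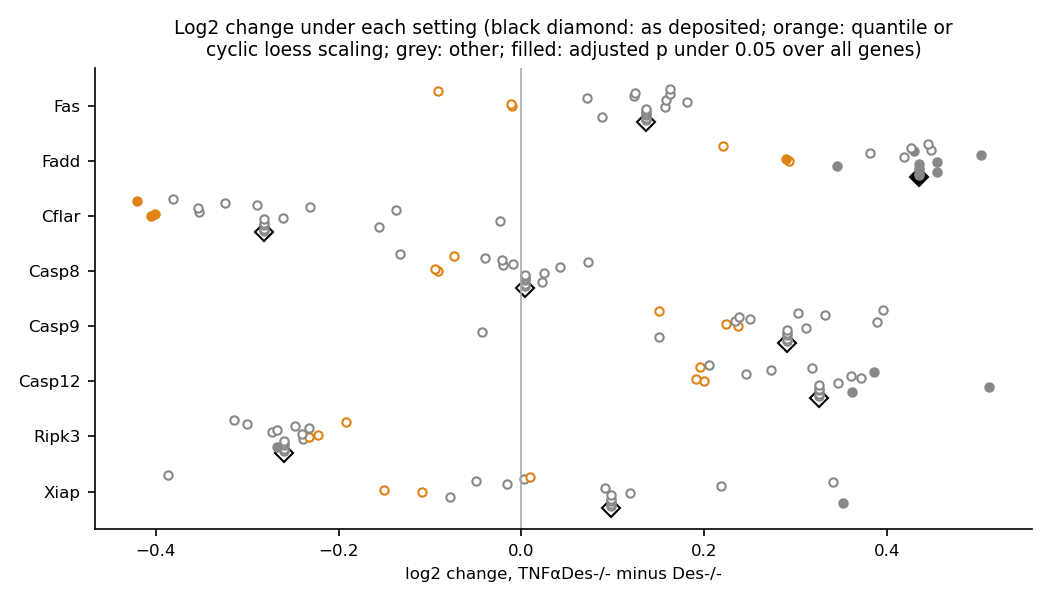
Log2 change (TNFαDes-/- minus Des-/-) of the 8 genes as deposited (black diamonds) and under each alternative setting (circles, orange for quantile and cyclic loess scaling, grey for the others), filled where the adjusted p over all genes was under 0.05. Fadd stays above 0 in every setting (0.22 to 0.50), while Fas, Casp8, Casp9 and Xiap lie on both sides of 0.

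The rest of the pathway was read from 7 lists holding 64 other genes, of which 61 were measured. Of these 11 rose and 2 fell, 21.3% in all, the same share as among all genes, with a median log2 change of 0.07 beside 0.04.

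Among 9 death receptors and ligands, 1 rose and 1 fell (median -0.16). Tnfrsf1a, which encodes TNF receptor 1, read 9.30, 9.35 and 9.32 in TNFαDes-/- hearts, against 9.02, 8.72 and 8.84 in Des-/- hearts. It rose by 0.46 ± 0.11 (SE, limma adjusted p = 0.0166) without overlap, and the call ended after quantile normalization (0.25, limma adjusted p = 0.0776) and without Des-/- replicate 2 or 3 or TNFαDes-/- replicate 1 or 3 (limma adjusted p up to 0.0756). Tnfsf10, the ligand TRAIL, had a log2 change of -0.53 ± 0.09 (SE, limma adjusted p = 0.00473), a fall, with all TNFαDes-/- values below the array medians, so no fold is given. The death receptor Tnfrsf21 (-0.23 ± 0.14) and TNF receptor 2, Tnfrsf1b (-0.34 ± 0.14), did not pass, though Tnfrsf1b did after quantile normalization (-0.42, limma adjusted p = 0.0212).

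Of 18 receptor adaptors and enzymes of linear ubiquitin, 2 rose and 0 fell (median 0.16). Birc3, the ubiquitin ligase cIAP2 of the TNF receptor complex, read 8.06, 7.88 and 8.25 in TNFαDes-/- hearts, against 7.57, 7.29 and 7.35 in Des-/- hearts, a rise of 0.66 ± 0.13 (SE, limma adjusted p = 0.00768). Otulin, which removes linear ubiquitin chains, read 8.78, 8.79 and 8.84 in TNFαDes-/- hearts, against 8.19, 8.07 and 8.01 in Des-/- hearts, a rise of 0.71 ± 0.10 (limma adjusted p = 0.00152) that held under all 18 alternative settings. The Fas-binding Faf1 (0.22 ± 0.13), Pea15a (0.02 ± 0.09), whose product binds FADD, and Sharpin (-0.01 ± 0.11), a subunit of the linear ubiquitin ligase, did not pass.

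Of the 5 other caspases measured 1 rose. Casp4, the gene of mouse caspase-11 and the neighbour of Casp12 on chromosome 9, read 5.30, 5.20 and 5.47 in TNFαDes-/- hearts, against 4.53, 4.90 and 4.93 in Des-/- hearts. It rose by 0.54 ± 0.14 (SE, limma adjusted p = 0.0236), and the Des-/- arrays lay below their medians, so no fold is given. The call ended without TNFαDes-/- replicate 1 (0.55, limma adjusted p = 0.0775) or 3 (0.47, 0.0991). Mice of 129 strains are known to carry a defective Casp4 allele, and strain differs between these groups, so the limit on strain given above applies to this gene as well. Casp2 (-0.03 ± 0.10), Casp6 (0.16 ± 0.10) and Casp14 (-0.54 ± 0.21) did not pass. Casp14 was read on a probe set open to cross-hybridisation, and passed as a fall in 3 of 18 alternative settings. Among these were array weights (-0.72, limma adjusted p = 0.000931), where 46.2% of all genes passed.

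Of 7 genes of the apoptosome and of proteins that act at or leave mitochondria, 1 rose, Bid, whose product caspase-8 cleaves to reach the mitochondria. Bid read 5.02, 4.69 and 5.11 in TNFαDes-/- hearts, against 3.92, 4.43 and 4.11 in Des-/- hearts, a log2 change of 0.79 ± 0.16 (SE, limma adjusted p = 0.00971). The Des-/- values lay below each array's median, the mean of its 3 probe sets was 0.29, and the call ended without TNFαDes-/- replicate 3 (limma adjusted p = 0.0514). Cycs, cytochrome c (0.04 ± 0.20), and the mitochondrial flavoprotein Aifm1 (-0.06 ± 0.15) and nuclease Endog (-0.09 ± 0.10) did not pass, though Aifm1 (-0.30) and Endog (-0.34) passed as falls after quantile normalization.

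Among 7 caspase inhibitors and their partners, 2 rose and 1 fell. Nol3, the gene of ARC, a repressor of apoptosis abundant in heart and skeletal muscle, read 9.75, 9.91 and 9.79 in TNFαDes-/- hearts, against 8.89, 8.66 and 8.57 in Des-/- hearts. That is 2.16-fold higher (1.11 ± 0.11 SE, limma adjusted p = 0.000428) and held in all 18 alternative settings, at 0.86 to 1.20. Xaf1, whose product binds and opposes XIAP, read 7.92, 7.49 and 7.93 in TNFαDes-/- hearts, against 8.75, 8.52 and 8.64 in Des-/- hearts, a fall, at -0.86 ± 0.14 (SE, limma adjusted p = 0.00368). Averaged over both its probe sets, Xaf1 stood at -0.26 and did not pass (limma adjusted p = 0.055). Faim, an inhibitor of Fas-induced apoptosis, rose by 0.64 ± 0.14 (limma adjusted p = 0.0152), a call lost without TNFαDes-/- replicate 1 or 3 or Des-/- replicate 2 or 3 (limma adjusted p up to 0.0684). Birc6 (-0.37 ± 0.24), Faim2 (-0.25 ± 0.15) and Naip2 (-0.08 ± 0.10) did not pass. Naip2 lay below the array medians throughout, so a signal over background is not shown for it.

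Of 8 genes around necroptosis, 3 rose and 0 fell (median 0.34). Hsp90aa1, the chaperone that keeps RIPK3 and other kinases folded and is a heat shock gene in its own right, read 11.63, 11.53 and 11.64 in TNFαDes-/- hearts, against 10.30, 9.56 and 9.56 in Des-/- hearts, 3.47-fold higher (limma adjusted p = 0.000533), or 1.10 on the log2 scale as the mean of its 5 probe sets. Pgam5, a mitochondrial phosphatase, rose by 0.78 ± 0.15 (SE, limma adjusted p = 0.00764). Ticam1, the Toll-like receptor adaptor TRIF, rose by 0.36 ± 0.11 (limma adjusted p = 0.0462) on a probe set open to cross-hybridisation, and the call ended with the replicate block (limma adjusted p = 0.0612), after quantile normalization (0.23, limma adjusted p = 0.200) and without any 1 array. The phosphatase Ppm1b (0.07 ± 0.11) and the co-chaperones Cdc37 (0.32 ± 0.11) and Stub1 (0.43 ± 0.16) did not pass. Mlkl, the effector that RIPK3 phosphorylates, is named after its values were seen: it stood at 4.80 ± 0.17 in TNFαDes-/- and 4.75 ± 0.13 in Des-/- hearts (SD, n = 3), below the median of each array on all 6.

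Of 7 caspase substrates and genes of pyroptosis, 1 rose. Pycard, the inflammasome adaptor ASC, read 7.97, 8.11 and 8.09 in TNFαDes-/- hearts, against 7.79, 7.65 and 7.56 in Des-/- hearts, a rise of 0.39 ± 0.10 (SE, limma adjusted p = 0.0288). The Pycard call ended after quantile normalization (0.25, limma adjusted p = 0.0844), as the mean of its 3 probe sets (0.11, limma adjusted p = 0.491) and without any 1 array other than Des-/- replicate 1. Parp1 (-0.37 ± 0.16), the nuclease inhibitor Dffa (-0.29 ± 0.13) and the pore-forming Gsdme (0.75 ± 0.35) did not pass, and Parp1 and Dffa passed as falls after quantile normalization (-0.58 and -0.42). Gsdme read 7.96, 6.42 and 6.51 in Des-/- hearts, and passed as a rise without Des-/- replicate 1 (1.25, limma adjusted p = 0.000173), where 32% of all genes passed. After quantile normalization Gsdme did not pass (0.67, limma adjusted p = 0.184).

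**Figure D5:**
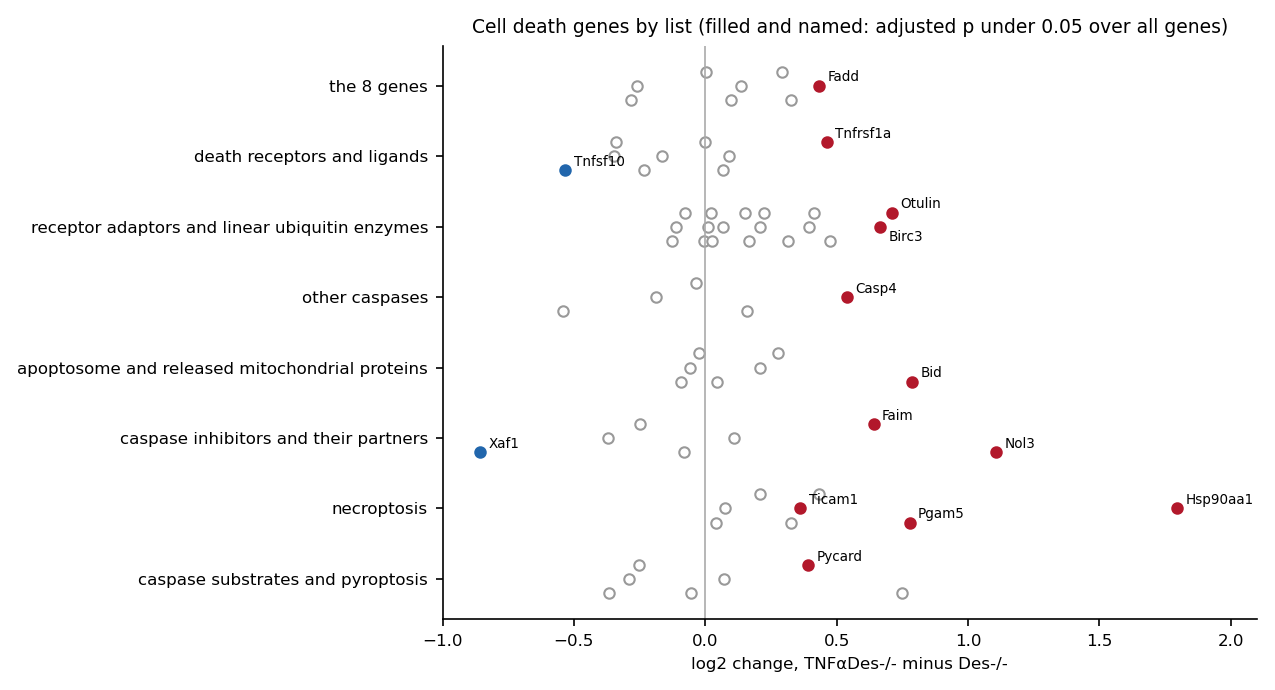
Log2 change (TNFαDes-/- minus Des-/-) of the 8 genes and of the 61 other measured cell death genes by list, filled and named where the adjusted p over all genes was under 0.05, red for higher and blue for lower. Hsp90aa1 (1.80) and Nol3 (1.11) lie farthest to the right and Xaf1 (-0.86) farthest to the left.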

How the data were processed

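Heart RNA of 3 TNFαDes-/- and 3 Des-/- arrays was analysed, grouped by sample title. The authors deposited log2 values, made with RMA (version not stated) per the submitters' processing notes. The upper ends of the columns differ (99th percentiles of 11.69 to 12.31), so a quantile step over all 6 arrays is not borne out. The table holds no detection calls, scan dates or batches, and with 3 arrays a group their number limits precision. Of 45037 probe sets other than the 64 controls, 34945 have 1 gene symbol, 932 several and 9160 none in the platform annotation; only the first kind names a gene. Gene IDs of 34741 were found in the RefSeq table, which changed 0 symbols.

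The tests used lmFit and eBayes of limma 3.58.1 (R 4.3.3) over 18193 genes, 1 probe set each, or over all probe sets, without a filter. The fit was run on simulated data, where only the recovery of changes far larger than those of the members was required. Genes were named by rule: all members, list genes past the test, and up to 3 others a list with the highest mean, with Tnf and Des. Members and lists were chosen with earlier results of these data known. Alternatives covered the spread model, a replicate block, array weights, leaving out dim probe sets, probe set choice, scaling and arrays left out. Same-numbered arrays did not pair: deviations from group means correlated at 0.25, 0.31 and -0.30. Figures were drawn with matplotlib 3.10.9.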

Additional observations from a re-analysis of the deposited data

How the results depend on the processing

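As deposited, 3869 genes passed, with 1 member higher and 0 lower, 2 member probe sets higher and 0 lower, and 11 other cell death genes higher and 2 lower. Leaving out 1 array in turn gave 2068 to 5814 genes, 0 to 2 members higher, 1 to 4 member probe sets higher, and 5 to 18 other cell death genes higher and 2 to 4 lower. The highest count, 5814, was without Des-/- replicate 1, and 2068 to 2232 genes passed without TNFαDes-/- replicate 1 or 3 or Des-/- replicate 2 or 3. Array weights gave 8414 genes, 46.2% of all, with 3 members higher (Fadd, Casp12, Xiap) and 1 lower (Ripk3), 5 and 3 member probe sets, and 22 and 6 other genes. Quantile normalization gave 0 members higher and 1 lower, 1 member probe set higher and 2 lower, and 7 other genes lower; over all genes 53.6% of its calls were higher, against 71.5% as deposited. Cyclic loess gave 1 member higher (Fadd) and 1 lower (Cflar), 1 and 2 member probe sets and 8 other genes lower. It turned Cycs to -0.40 (limma adjusted p = 0.0126). Quantile normalization of 5 arrays without Des-/- replicate 1 gave 0 members higher and 1 lower. Its member probe set calls were Cflar 1449317_at and Casp12 1449297_at higher, and 2 lower. It gave 12 other genes lower and turned Pea15a to -0.32 (limma adjusted p = 0.0323). With Des-/- replicates 2 and 3 left out together, chosen after seeing the data, 1 Des-/- array remained, so the spread came from the TNFαDes-/- arrays alone and a lost call says little; 1587 genes passed, with 0 members higher, 0 and 3 member probe sets and 5 other genes higher. The mean of all probe sets gave 2 members higher. The replicate block gave 4278 genes, with 3 member probe sets higher and 1 lower. The causes of these differences were not tested. Folds of probe sets below the array medians are limited by signal over background.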
